A study of Mus musculus with 23 samples.

Results

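Messenger RNAs of the mitochondrial respiratory chain and ATP synthase were followed in the mouse hippocampus. The genes were those of the panel whose symbol begins with Nduf, Sdh, Uqcr or Atp5, or with Cox followed directly by a digit. The panel listed 35 such genes, and 34 of its 748 genes with values met the rule, because Sdha, the flavoprotein of complex II, was listed without a value in any mouse. They comprised 17 genes named for complex I, 2 for complex II, 3 for complex III, 10 for complex IV and 2 for ATP synthase. In 32 of them the product is a subunit of a complex. Cox10, which makes a precursor of heme A, and Cox14, which acts early in the building of cytochrome c oxidase, are assembly genes. Ndufa4 carries a complex I name, but its protein is now placed in complex IV.

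The study measured total RNA from the hippocampus of 23 mice aged 18 months on a NanoString nCounter metabolic pathways panel, in which colour-coded probes bound to each transcript are counted without amplification. All mice were of the strain C57BL6/J, and 5 groups were labelled. Wild-type mice on vehicle numbered 4 (2 females, 2 males). The AD mice carried Tg(APPSwe,tauP301L)1Lfa and Psen1tm1Mpm, the alleles of the line called 3xTgAD. There were 5 of them on vehicle (3 females, 2 males) and 5 on urolithin A (2 females, 3 males). The ADPolB mice carried the same alleles and were in addition heterozygous for Polbtm1Rsky. There were 4 of them on vehicle (1 female, 3 males) and 5 on urolithin A (3 females, 2 males). Urolithin A is a metabolite formed by intestinal microbes from ellagitannins in plants. Treated mice received 200 mg per kg daily by gavage over 5 months. No wild-type group on urolithin A was among the samples. In this line the human APP and tau transgenes are driven by a Thy1 promoter, which is active in neurons, and Polb encodes DNA polymerase beta of base excision repair. The design asks whether genotype or treatment altered hippocampal gene expression.

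The respiratory chain passes electrons from NADH through complex I, or from succinate through complex II, to ubiquinone. Complex III hands them to cytochrome c, and complex IV hands them to oxygen. Complexes I, III and IV pump protons across the inner mitochondrial membrane, and ATP synthase uses their return flow to make ATP. Neurons depend strongly on this pathway, since synaptic transmission and ion pumping consume much ATP. Most subunits are encoded in the nucleus, and the factors NRF1, GABPA of the ETS family, ERR and YY1 are known regulators of many of their promoters.

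Upstream sequences are shown for Ndufb4, Ndufb7, Cox5b and Atp5k, because they held the 2 smallest p-values against wild type in AD mice (Ndufb4 and Cox5b) and in ADPolB mice (Atp5k and Ndufb7) on vehicle, given below. Each line gives the 250 bases before the transcription start, 5′ to 3′ on the gene's strand, from RefSeq (GRCm38.p6). They lie at chr16:37654369-37654618 on the minus strand for Ndufb4, chr8:83566508-83566757 on the plus strand for Ndufb7, chr1:36691237-36691486 on the plus strand for Cox5b and chr5:108434400-108434649 on the minus strand for Atp5k. Capitals mark exact matches to the searched motifs. These are AAGGTCA (ERR) in Ndufb4, CCGGAAG (ETS) in Ndufb7 and the 10-base NRF1 palindrome in Atp5k, while the Cox5b stretch held no exact match to any of the 4 motifs searched.
Ndufb4: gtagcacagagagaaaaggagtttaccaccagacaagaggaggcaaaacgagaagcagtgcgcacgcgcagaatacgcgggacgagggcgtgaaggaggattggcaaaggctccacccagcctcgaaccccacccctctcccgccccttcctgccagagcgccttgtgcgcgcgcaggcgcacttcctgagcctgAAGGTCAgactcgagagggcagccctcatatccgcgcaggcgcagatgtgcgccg
Ndufb7: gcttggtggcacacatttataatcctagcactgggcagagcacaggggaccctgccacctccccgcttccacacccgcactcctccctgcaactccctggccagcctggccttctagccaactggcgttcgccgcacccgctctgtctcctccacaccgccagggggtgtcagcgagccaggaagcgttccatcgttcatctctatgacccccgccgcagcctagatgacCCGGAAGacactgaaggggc
Cox5b: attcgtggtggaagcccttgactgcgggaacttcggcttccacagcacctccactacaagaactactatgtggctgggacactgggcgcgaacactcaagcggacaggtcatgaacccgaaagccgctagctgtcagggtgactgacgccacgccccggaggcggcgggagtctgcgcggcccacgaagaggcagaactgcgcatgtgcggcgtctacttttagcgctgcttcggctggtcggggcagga
Atp5k: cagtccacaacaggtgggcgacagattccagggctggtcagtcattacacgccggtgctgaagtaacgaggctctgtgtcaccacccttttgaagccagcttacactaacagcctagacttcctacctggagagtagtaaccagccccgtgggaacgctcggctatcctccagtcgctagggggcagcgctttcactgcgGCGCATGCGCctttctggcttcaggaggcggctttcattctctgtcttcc

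The promoter table held 32 windows for 30 of the genes, each reaching from 250 bases before to 50 bases after a start, and 32851 windows for all genes. Ndufa2, Sdhc, Uqcrq and Cox4i1 were not among these. The motif CCGGAAG, searched on both strands like the others, was present in 10 of the 32 windows (31.2%), among them those of Cox6a1, Cox6b1, Cox8a, Ndufs8, Sdhb and Uqcr11, against 8.86% of all windows. The NRF1 palindrome, spelled by the capitals of Atp5k above, was found in 3 (9.38%), those of Atp5k, Cox6a1 and Ndufa11, against 0.971%. AAGGTCA was found in 3 (9.38%), those of Atp5k, Ndufb2 and Ndufb4, against 4.72%. In Atp5k this match and a match to CCGGAAG lie after the start, outside the 250 bases printed above. ATGGCGG, a YY1 motif, was found in 5 (15.6%) against 4.05%, and 2 of these 5 were overlapping windows of Ndufa7 that share a single match. The median GC content of the windows was 56.8% for these genes and 52.7% for all genes. Such matches describe the letters of the windows and are not measured binding sites.

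All values below are log2 of normalized counts as deposited, and a difference is a difference of group means on that scale. Low values in each mouse lay on log2 of whole numbers plus 1 constant, which gave inferred total counts of 426748 to 692829 in 21 mice. The other two were treated ADPolB replicates 3 and 5, with 246028 and 186275. None of the 11 measured cell type markers passed the threshold in any comparison. On the log2 scale, the summed level of 3 choroid plexus markers (Ttr, Folr1 and Slc16a8, of 6 listed) ranged from 5.83 to 12.73 in wild-type, 6.51 to 11.40 in AD and 6.54 to 12.31 in ADPolB mice on vehicle. It ranged from 5.79 to 13.18 in treated AD and 6.52 to 13.66 in treated ADPolB mice. The medians of these 5 groups were 6.85, 6.80, 10.82, 11.47 and 12.41, so the choroid plexus signal lay higher in ADPolB and in treated mice by medians, with overlapping ranges. The 3 neuronal markers (Mapt, Gad1 and Nat8l, of 8 listed) summed to 12.27 to 12.49 in wild-type, 12.47 to 12.84 in AD, 12.52 to 12.68 in ADPolB vehicle, 12.48 to 13.09 in treated AD and 12.42 to 12.77 in treated ADPolB mice. Of these, Mapt, which encodes tau, was at 0.61 in AD and 0.355 in ADPolB vehicle mice against wild type, and Gad1 at 0.21 and 0.0025. With Nat8l, all 3 were above 0 in both comparisons as deposited, with medians of 0.21 and 0.235. Median centring left 2 of the 3 above 0 in ADPolB mice. Whether the Mapt probe reads the human tau transgene was not tested. In the same 2 comparisons the oligodendrocyte marker Aspa was at 0.87 and 1.195, the endothelial marker Flt1 at 0.52 and 0.505, and the microglial marker Itgam at 0.33 and 0.17. The astrocyte marker Glul was at 0.16 and 0.34, the latter -0.03 with quantile normalization. The part of cell composition in the differences below was not tested, and in bulk tissue fewer cells of a type and less RNA per cell cannot be told apart.

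The 34 genes varied little between mice. All 34 were among the 619 genes of the panel that reached a normalized count of 20 in at least 4 mice. Their median log2 normalized count was 11.02, against 7.95 over the 619 genes, which gives the signal behind the values and not relative expression, since each probe has its own efficiency. The median within-group SD of the 34 genes was 0.109 (range 0.0554 to 0.395), against 0.243 over the 619 genes. It was under 0.2 for 32 of the 34, all but Cox10 and Ndufa11. The SD was not compared with that of other genes of like level, so the part of the higher level was not tested. The span between the highest and lowest of the 5 group means was under 0.2 in 23 of the 34 genes and in 173 of the 619.

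The core subunits of complex I in the set were Ndufs7 (median over mice 11.09) and Ndufs8 (10.39), which carry iron-sulfur clusters on the path of electrons to ubiquinone. The other complex I names belong to accessory subunits, which surround the core and are needed for assembly or stability. Of these, Ndufa1 had a median of 11.41, Ndufa2 of 10.09, Ndufa3 of 11.53, Ndufa6 of 9.11 and Ndufa7 of 9.43. Ndufa12, which sits at the peripheral arm, had 11.69, and Ndufa13, also known as GRIM-19, had 10.50. Ndufa4 had 11.81. The accessory subunits of the proton-pumping membrane arm had medians of 10.70 (Ndufb2), 9.76 (Ndufb4), 10.53 (Ndufb7), 11.36 (Ndufb8), 11.41 (Ndufb10) and 8.66 (Ndufb11). Ndufa11, another membrane-arm subunit, had the lowest median, 4.31. It reached a normalized count of 20 in 11 of the 23 mice and stood for 9.02 to 30.1 inferred counts per mouse, so it carries the most counting error. None of the wild-type mice reached that count (highest log2 value 4.12), so Ndufa11 entered the tested set only through transgenic mice. Its place above wild type is therefore not independent of this filter.

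In complex II, Sdhb, the iron-sulfur subunit, had a median of 10.36, and Sdhc, one of the subunits that anchor the enzyme in the membrane and bind heme, had 10.26. The small complex III subunits Uqcr10, Uqcr11 and Uqcrq had medians of 11.61, 11.56 and 11.83. Among nuclear-encoded subunits of complex IV, which surround the mitochondrially encoded catalytic core, Cox4i1 had 11.20, Cox5a 12.01, Cox5b 12.77 and Cox6a1 13.78. Cox6b1 had 11.84, Cox7b 5.82, Cox7c 12.47 and Cox8a 8.0. The assembly genes Cox10 and Cox14 had medians of 7.22 and 9.49. In ATP synthase, Atp5d, the delta subunit of the rotating central stalk, had 10.99, and Atp5k, the e subunit of the membrane part, which takes part in joining the enzyme into dimers, had 11.87.

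**Figure D1:**
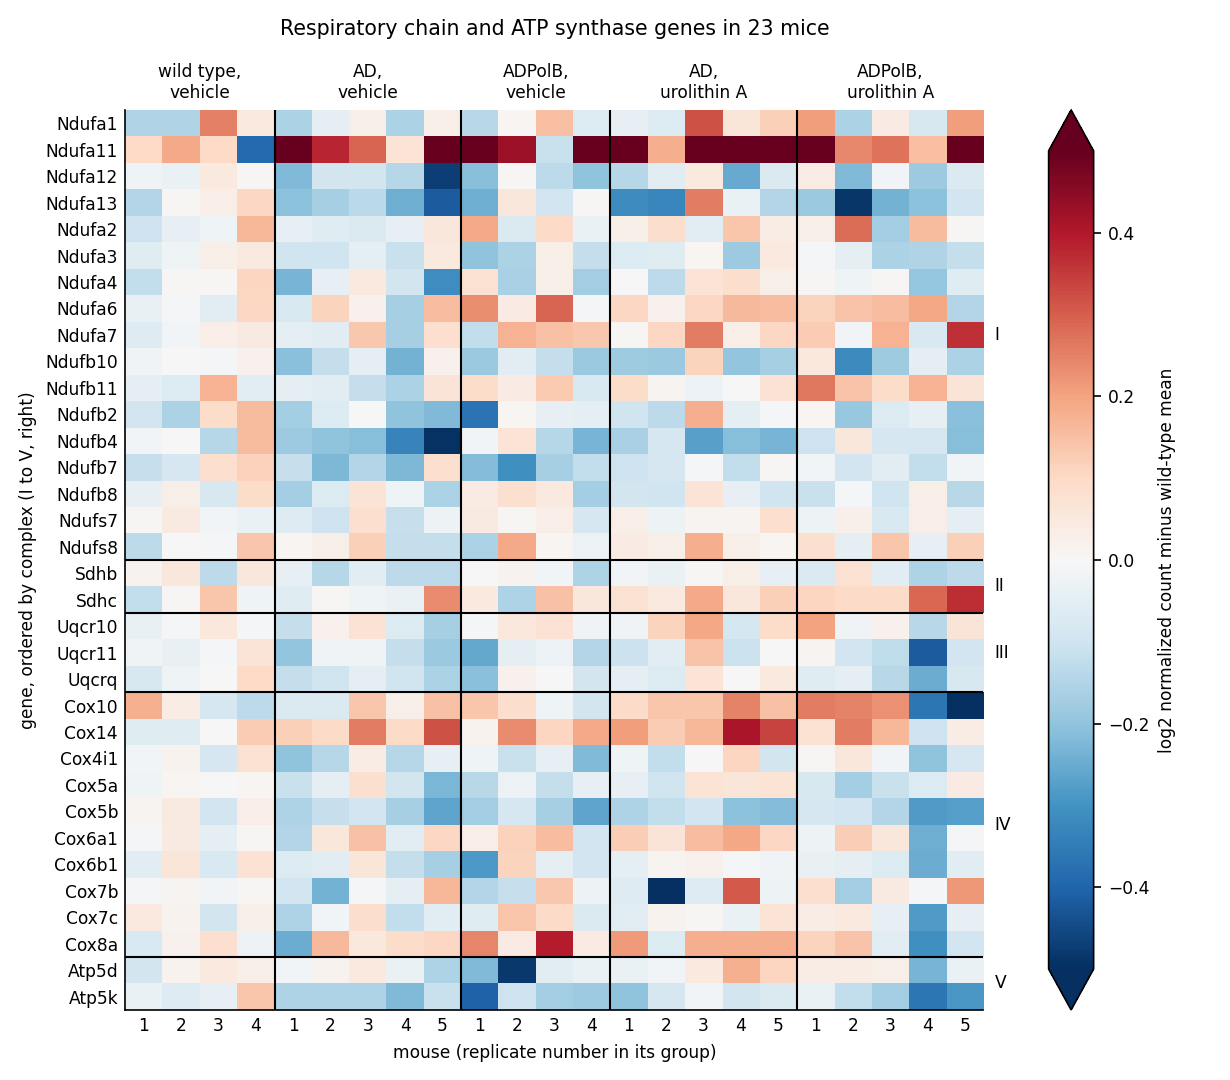
Log2 normalized count of each of the 34 genes (rows, grouped by complex) in each of the 23 mice (columns, by group), as the difference from the gene's wild-type mean, with colours ending at 0.5 in either direction. Most cells are pale, and the strongest colours lie mostly in Ndufa11, the gene with the lowest level, where the within-group SD was 0.395. Cox10 in treated ADPolB replicate 5 (6.42, wild-type mean 7.12) also lies past the end of the scale. So does Cox7b in treated AD replicate 2 (5.28, wild-type mean 5.835).

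In AD mice on vehicle, none of the 34 genes differed from wild type beyond the spread between mice after adjustment over the panel. Complex I accessory subunits Ndufb4 and Ndufa12 and the subunits Cox5b and Atp5k lay nominally below wild type, by -0.28, -0.20, -0.16 and -0.16, that is at 0.821 to 0.896 times the wild-type level. The differences of the 34 genes had a median of -0.06, with 27 below 0 and 7 above (30 below 0 under median centring and under quantile normalization), while the 619 genes had a median of 0.04. By limma's moderated test, 0 of 34 had an adjusted p under 0.05, against 0.162% of the 619 genes, namely Pdk1, a kinase that inhibits pyruvate dehydrogenase, named after its value was seen. That call was absent with median centring, with quantile normalization, with only the groups compared, with ordinary regression and Benjamini-Yekutieli adjustment, and without wild-type replicate 1 or 4. At an unadjusted p under 0.05 there were 6 of the 34 (5 lower, 1 higher), and 9.21% of the 619 genes (3.72% lower, 5.49% higher). In 33 of the 34 genes the whole 95% confidence interval lay within 0.5 of no difference, against 306 of the 619 genes; the exception was Ndufa11, with 0.46 and an interval from -0.10 to 1.03.

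Ndufb4, an accessory subunit of the complex I membrane arm, read 9.89, 9.90, 9.76 and 10.06 in wild-type mice and 9.72, 9.70, 9.69, 9.57 and 9.41 in AD mice on vehicle. All 5 AD mice lay below all 4 wild-type mice, with AD replicate 5 lowest. The means were 9.90 ± 0.123 (SD, n = 4) and 9.62 ± 0.130 (n = 5), and the difference of -0.28 (SE 0.0776, 95% interval -0.45 to -0.12) had a limma adjusted p of 0.223. In ADPolB mice on vehicle Ndufb4 read 9.89, 9.97, 9.76 and 9.67, which overlapped both other vehicle groups. With urolithin A it read 9.74, 9.82, 9.63, 9.69 and 9.67 in AD mice and 9.80, 9.96, 9.82, 9.82 and 9.69 in ADPolB mice, so both treated groups overlapped wild type.

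Ndufa12 read 11.76, 11.75, 11.83 and 11.79 in wild-type mice and 11.56, 11.69, 11.69, 11.64 and 11.31 in AD mice on vehicle. The groups did not overlap, and replicate 5 of the AD mice was again lowest. The difference was -0.20 (SE 0.0775, limma adjusted p = 0.484). In the other groups Ndufa12 read 11.57, 11.79, 11.65 and 11.58 in ADPolB mice on vehicle, 11.64, 11.73, 11.83, 11.53 and 11.71 in treated AD mice, and 11.82, 11.56, 11.77, 11.60 and 11.71 in treated ADPolB mice. Each of these groups reached into the wild-type range. Ndufb4, Ndufa12 and Atp5k were the 3 genes of the 34 in which all AD mice lay below all wild-type mice; this occurred in 1.78% of the 619 genes. None of the 34 lay entirely above wild type, against 1.13% of the 619.

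Cox5b, a subunit of cytochrome c oxidase on the matrix side, read 12.93, 12.96, 12.82 and 12.95 in wild-type mice and 12.76, 12.80, 12.82, 12.75 and 12.65 in AD mice on vehicle. The groups met at a single value, 12.82, shared by wild-type replicate 3 and AD replicate 3. In ADPolB mice on vehicle it read 12.74, 12.83, 12.75 and 12.65. With treatment it read 12.76, 12.79, 12.82, 12.71 and 12.70 in AD mice and 12.83, 12.82, 12.77, 12.63 and 12.64 in ADPolB mice. All 4 transgenic groups thus lay at or below 12.83, and 3 of the 4 wild-type mice lay above them. Cox5b was at -0.16 in AD (SE 0.0553, limma adjusted p = 0.362) and at -0.17 in ADPolB mice on vehicle (SE 0.0583, adjusted p = 0.258). It was at -0.16 in treated AD mice (adjusted p = 0.466) and at -0.18 in treated ADPolB mice (adjusted p = 0.157). With quantile normalization these 3 last differences were -0.36, -0.39 and -0.42, and with median centring -0.24, -0.28 and -0.30, without passing the threshold. These 4 comparisons share the same 4 wild-type mice.

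Of the other genes with an unadjusted p under 0.05 in AD mice, Cox14 was at 0.18 and Ndufa13 at -0.23, both with an adjusted p of 0.510. By complex, the median difference was -0.06 for complex I (15 of 17 below 0), -0.04 for complex II (1 of 2), -0.11 for complex III (3 of 3), -0.05 for complex IV (6 of 10) and -0.09 for ATP synthase (2 of 2). With limma's array weights, which give more weight to mice with smaller residuals, Ndufb4 (adjusted p = 0.0192) and Cox5b (adjusted p = 0.0317) passed the threshold among 10 genes of the panel.

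**Figure D2:**
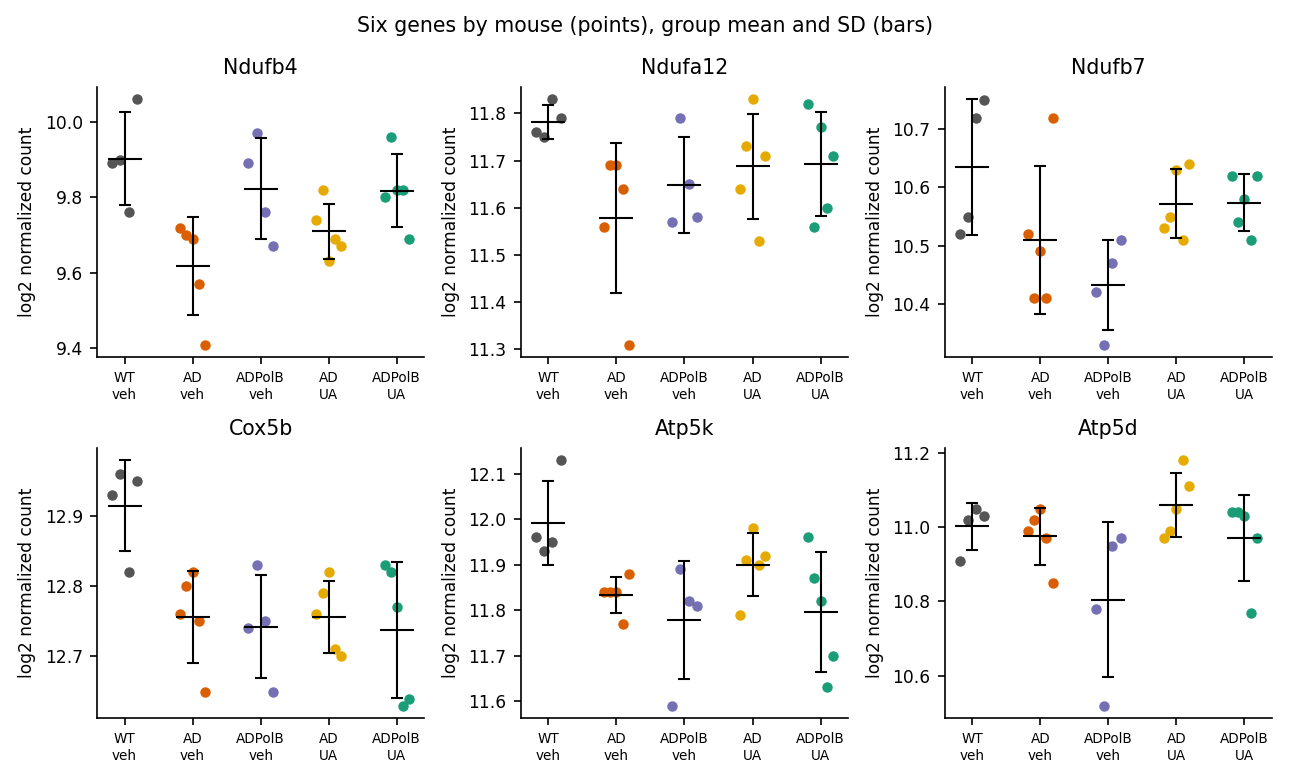
Log2 normalized count of Ndufb4, Ndufa12, Ndufb7, Cox5b, Atp5k and Atp5d in each mouse (points), with the mean and SD of each group (bars), on axes that do not start at 0. The wild-type mice lie highest on average in Ndufb4, Ndufa12, Ndufb7, Cox5b and Atp5k, and their means are 9.90, 11.78, 10.64, 12.92 and 11.99.

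In ADPolB mice on vehicle, both ATP synthase genes, the complex I subunit Ndufb7 and Cox5b had the smallest p-values against wild type. They lay at 0.862 times (Atp5k), 0.869 times (Ndufb7), 0.887 times (Cox5b) and 0.872 times (Atp5d) the wild-type level. None of the 34 genes passed the threshold by limma, and neither did any of the 619 (0%). At an unadjusted p under 0.05 there were 4 of the 34, all lower, and 13.1% of the 619 genes, of which 3.07% of the 619 were lower. The median difference was -0.04 (19 below 0, 13 above), against 0.10 over the 619 genes. It was -0.11 with median centring (29 below, 5 above) and -0.08 with quantile normalization (27 below, 7 above). Intervals lay within 0.5 of no difference in 33 of the 34 genes and in 294 of the 619.

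Atp5k read 11.96, 11.93, 11.95 and 12.13 in wild-type mice and 11.59, 11.89, 11.82 and 11.81 in ADPolB mice on vehicle. The groups did not overlap, with ADPolB replicate 1 lowest and wild-type replicate 4 highest. The difference was -0.21 (SE 0.0719, 95% interval -0.36 to -0.07, limma adjusted p = 0.258). In AD mice on vehicle Atp5k read 11.84, 11.84, 11.84, 11.77 and 11.88, also below every wild-type mouse, with a difference of -0.16 (adjusted p = 0.510). With urolithin A it read 11.79, 11.91, 11.98, 11.90 and 11.92 in AD mice and 11.96, 11.87, 11.82, 11.63 and 11.70 in ADPolB mice, and both groups reached into the wild-type range.

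Ndufb7, which lies on the side of complex I that faces the intermembrane space, read 10.52, 10.55, 10.72 and 10.75 in wild-type mice and 10.42, 10.33, 10.47 and 10.51 in ADPolB mice on vehicle. The lowest wild-type value and the highest ADPolB value, 10.52 and 10.51, were almost equal. The difference was -0.20 (SE 0.0683, limma adjusted p = 0.258). Ndufb7 read 10.52, 10.41, 10.49, 10.41 and 10.72 in AD mice on vehicle, 10.53, 10.55, 10.63, 10.51 and 10.64 in treated AD mice, and 10.62, 10.54, 10.58, 10.51 and 10.62 in treated ADPolB mice. These 3 groups overlapped wild type.

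Atp5d read 10.91, 11.02, 11.05 and 11.03 in wild-type mice and 10.78, 10.52, 10.95 and 10.97 in ADPolB mice on vehicle. Replicate 2 of the ADPolB mice was lowest, and the groups overlapped. The difference was -0.20 (limma adjusted p = 0.352). In AD mice Atp5d read 10.99, 11.02, 11.05, 10.97 and 10.85 on vehicle and 10.97, 10.99, 11.05, 11.18 and 11.11 on urolithin A, and treated ADPolB mice read 11.04, 11.04, 11.03, 10.77 and 10.97. In 4 of the 34 genes (Atp5k, Ndufb7, Ndufb10 and Cox5a) all ADPolB vehicle mice lay below all wild-type mice, which occurred in 2.58% of the 619 genes, and in none did they lie above, against 5.01%. With array weights, Atp5k (adjusted p = 0.0474) and Cox5b (adjusted p = 0.00557) passed, among 132 genes of the panel.

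**Figure D3:**
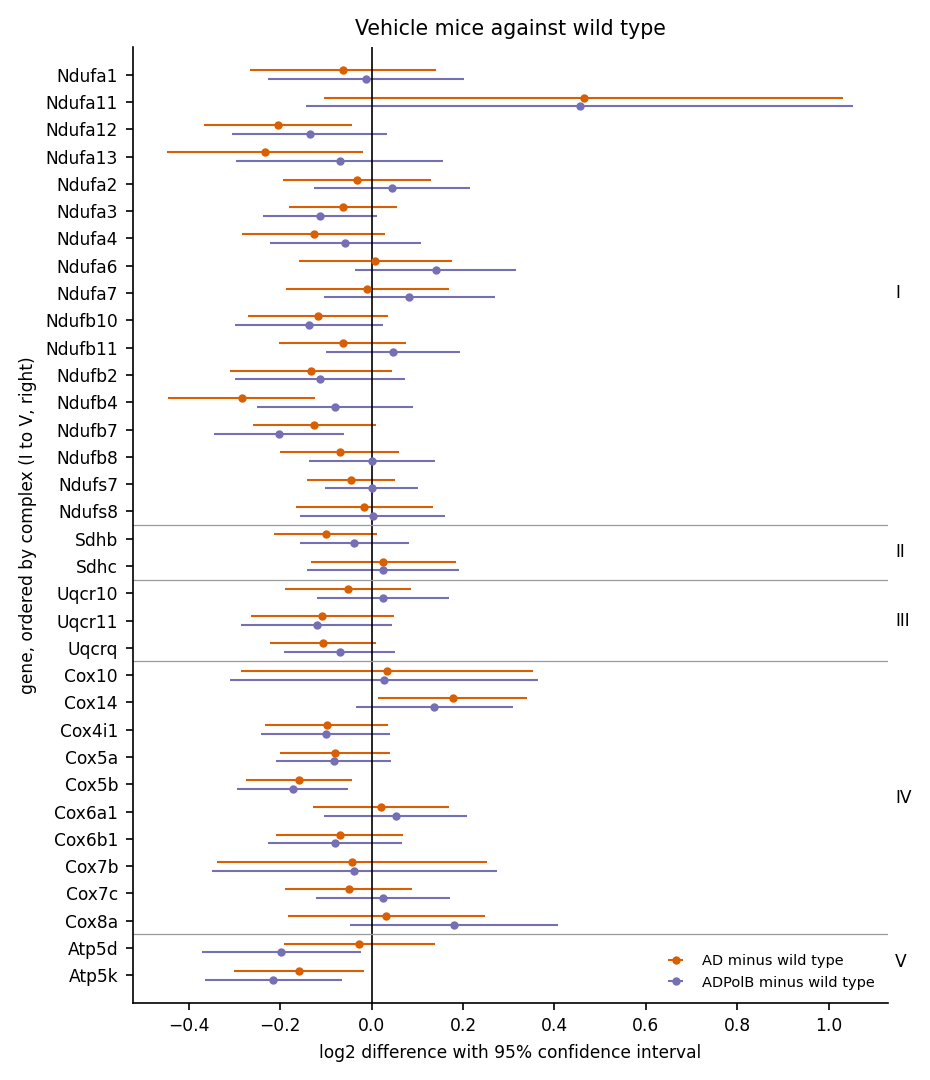
Difference from wild type for each of the 34 genes in AD and in ADPolB mice on vehicle (points) with 95% confidence intervals (lines), on the log2 scale. Most points lie at or left of 0, and all intervals but those of Ndufa11 stay within 0.5 of it. Both sets of differences use the same 4 wild-type mice.

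ADPolB and AD mice on vehicle, which differ by the Polb allele, gave differences on both sides of 0 in the 34 genes. As deposited, 20 were above 0 and 14 below, with a median of 0.03, against 0.05 over the 619 genes. With median centring and with quantile normalization 15 were above 0 and 19 below, with medians of -0.018 and -0.0036. By limma 0 of 34 passed, as did 0% of the 619 genes. At an unadjusted p under 0.05 there were 2 of the 34 and 4.2% of the 619. Ndufb4 was at 0.20 and Atp5d at -0.17 in ADPolB against AD mice, and Ndufb11 followed with 0.11 (adjusted p = 0.961 for each). Ndufb11, a complex I membrane-arm subunit encoded on the X chromosome, read 8.57, 8.56, 8.50, 8.46 and 8.68 in AD mice and 8.71, 8.66, 8.75 and 8.54 in ADPolB mice on vehicle. Wild-type mice read 8.57, 8.55, 8.79 and 8.56, and treated mice read 8.71, 8.63, 8.59, 8.62 and 8.69 (AD) and 8.88, 8.76, 8.71, 8.79 and 8.68 (ADPolB). The vehicle groups overlapped, and the 2 highest values of the 23 mice, 8.88 and 8.79, were reached in treated ADPolB mice, the latter also in a wild-type mouse.

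Urolithin A in AD mice left each of the 34 genes within 0.14 of its vehicle mean. The complex III subunits Uqcrq and Uqcr10 and the subunit Ndufa4 had the smallest p-values, with differences of 0.11, 0.11 and 0.14. None of the 34 passed by limma (smallest adjusted p = 0.932), as did 0% of the 619 genes. At an unadjusted p under 0.05 there were 0 of the 34 genes, against 3.39% of the 619, and ordinary regression gave 1. As deposited, 31 of the 34 differences were above 0 with a median of 0.09, but 447 of the 619 genes were above 0 too, with a median of 0.07. Of the 34, 13 were above 0 once each mouse was centred on its median over the 619 genes, with a median of -0.007, and 23 after quantile normalization, with a median of 0.03. Centring moved the median of all genes by -0.09 in this comparison and by up to -0.12 in the comparisons of treated mice with wild type.

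Uqcrq, a subunit of complex III close to cytochrome b, read 11.77, 11.79, 11.84, 11.79 and 11.73 in AD mice on vehicle and 11.84, 11.82, 11.96, 11.89 and 11.94 on urolithin A. Every treated mouse lay above the vehicle mean, and the groups overlapped at 11.82 to 11.84. The difference was 0.11 (SE 0.0524, 95% interval -0.003 to 0.21, limma adjusted p = 0.932). Uqcrq read 11.81, 11.87, 11.89 and 11.99 in wild-type mice, 11.68, 11.91, 11.89 and 11.80 in ADPolB mice on vehicle, and 11.83, 11.84, 11.75, 11.64 and 11.81 in treated ADPolB mice. In these groups the lowest value, 11.64, was that of treated ADPolB replicate 4.

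Ndufa4 read 11.58, 11.77, 11.86, 11.72 and 11.50 in AD mice on vehicle and 11.81, 11.68, 11.88, 11.90 and 11.84 on urolithin A. The groups overlapped, and vehicle replicate 5 was lowest. Wild-type mice read 11.69, 11.82, 11.82 and 11.92, and ADPolB mice read 11.89, 11.65, 11.84 and 11.64 on vehicle and 11.82, 11.79, 11.82, 11.62 and 11.75 on urolithin A. Uqcr10 read 11.50, 11.64, 11.69, 11.55 and 11.45 in AD mice on vehicle and 11.60, 11.73, 11.81, 11.53 and 11.71 on urolithin A, again with overlap. It read 11.58, 11.61, 11.67 and 11.61 in wild-type mice, 11.61, 11.67, 11.69 and 11.60 in ADPolB mice on vehicle, and 11.82, 11.60, 11.64, 11.48 and 11.68 in treated ADPolB mice. The wild-type values of Uqcr10 spanned less than 0.1 and lay inside the range of both AD groups.

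In ADPolB mice, urolithin A went with small differences in both directions. The complex II anchor Sdhc was at 0.17, the complex I subunit Ndufb7 at 0.14 and the complex IV subunit Cox8a at -0.22, none past the threshold by limma (adjusted p = 0.732 for each). No gene of the panel passed (0%). Without adjustment, 3 of the 34 had a p under 0.05, 2 higher and 1 lower, as did 6.46% of the 619 genes (2.42% higher, 4.04% lower). The median difference of the 34 was 0.0048 (19 above 0, 15 below), against 0.02 over the 619. After median centring 8 of the 34 were above 0 (median -0.04), and after quantile normalization 19 were (median 0.002). The 2 treated ADPolB mice with low inferred totals belong to this comparison.

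Sdhc read 10.25, 10.05, 10.35 and 10.26 in ADPolB mice on vehicle and 10.31, 10.30, 10.30, 10.49 and 10.57 on urolithin A. The treated group held the 2 highest values of all 23 mice, and the groups overlapped. The difference had an SE of 0.0760 and a 95% interval from 0.01 to 0.32. Sdhc read 10.08, 10.21, 10.34 and 10.18 in wild-type mice, 10.14, 10.21, 10.18, 10.17 and 10.44 in AD mice on vehicle and 10.28, 10.25, 10.39, 10.26 and 10.32 in treated AD mice. Among the AD vehicle mice replicate 5 stood above the other 4.

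Cox8a, a small membrane-spanning subunit of complex IV, read 8.16, 7.96, 8.31 and 7.96 in ADPolB mice on vehicle and 8.03, 8.06, 7.86, 7.61 and 7.82 on urolithin A. The lowest of the 23 values, 7.61, belonged to treated replicate 4, and the groups overlapped. In AD mice Cox8a read 7.67, 8.08, 7.97, 8.01 and 8.02 on vehicle and 8.13, 7.85, 8.10, 8.10 and 8.10 on urolithin A, and wild-type mice read 7.84, 7.94, 8.0 and 7.89. The difference in ADPolB mice of -0.22 had an SE of 0.104 and a 95% interval from -0.44 to -0.01. In AD mice the difference was 0.11.

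**Figure D4:**
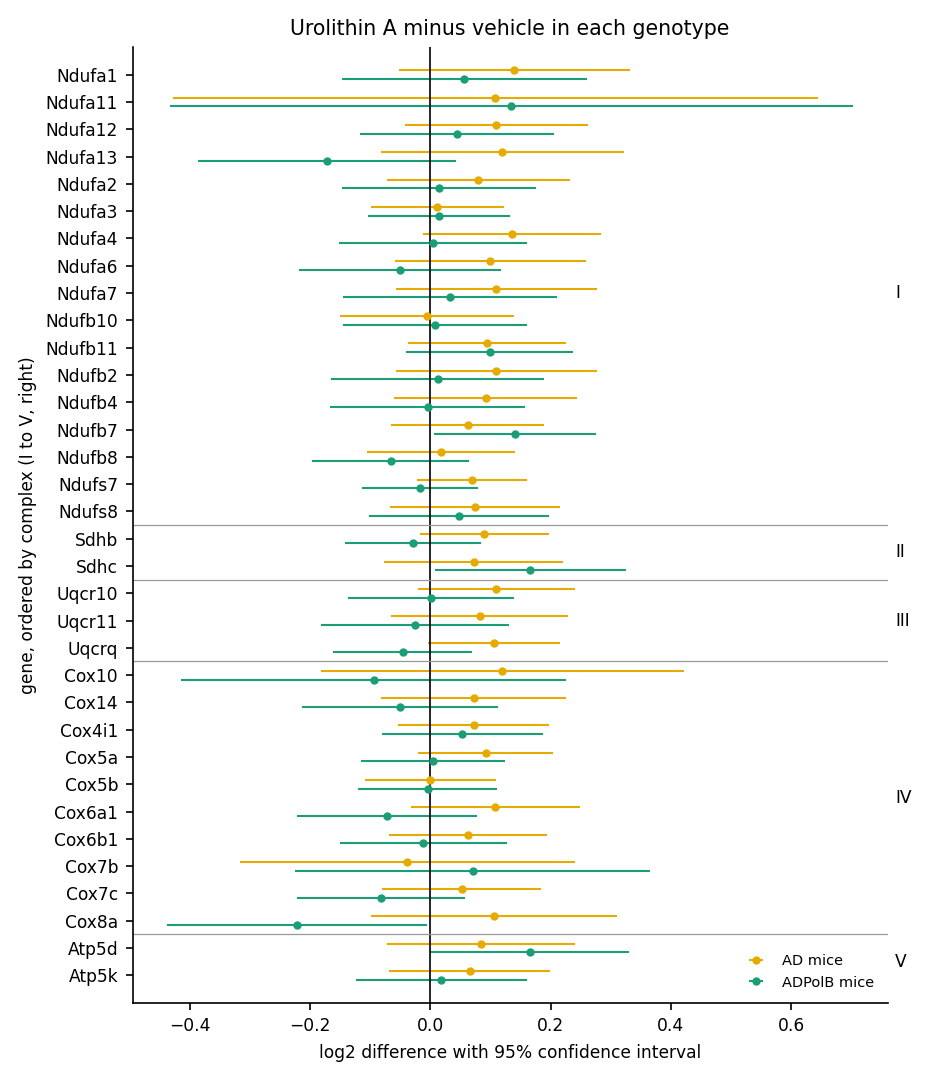
Urolithin A minus vehicle for each of the 34 genes in AD and in ADPolB mice (points) with 95% confidence intervals (lines), on the log2 scale. The AD points lie mostly right of 0 and none beyond 0.14, and the ADPolB points scatter around 0 with Cox8a lowest at -0.22.

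The treatment difference itself was compared between the genotypes. None of the 34 genes passed by limma, and none of the 619 did (0%). Cox8a came first with -0.33 (SE 0.143, adjusted p = 0.883), followed by Ndufa13 with -0.29 and Uqcrq with -0.15 (adjusted p = 0.975 for both). A single gene with an unadjusted p under 0.05 was found among the 34, Cox8a, against 5.01% of the 619. The median over the 34 genes was -0.08 (26 below 0) as deposited, against -0.06 over the 619. It was -0.04 with median centring and 0.0039 with quantile normalization, with 18 above 0. Averaged over both genotypes, the treatment difference was 0.10 for Ndufb7, 0.12 for Sdhc and 0.12 for Atp5d (adjusted p = 0.740 for each), and 0 of 34 passed by limma, as did 0% of the 619. Without adjustment, 4 of the 34 had a p under 0.05, all higher, against 5.49% of the 619 (4.2% higher). As deposited 29 of the 34 were above 0, 7 with each mouse centred on its median and 19 after quantile normalization.

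Treated mice were also set against the untreated wild type. The median difference of the 34 was 0.0055 in treated AD and -0.0545 in treated ADPolB mice as deposited, against 0.12 and 0.11 over the 619. It was -0.12 and -0.17 with median centring, and -0.04 and -0.06 with quantile normalization. In treated AD mice the assembly gene Cox14 was at 0.25 (limma adjusted p = 0.446) and Ndufb4 at -0.19 (adjusted p = 0.528), beside Cox5b given above. No gene of the 34 or of the 619 passed (0%), and at an unadjusted p under 0.05 there were 4 of the 34 and 9.21% of the 619. Cox6a1 was the only gene of the 34 in which treated AD mice lay entirely above wild type, which occurred in 3.39% of the 619. In treated ADPolB mice Atp5k was at -0.20 (adjusted p = 0.168) and Sdhc at 0.19 (adjusted p = 0.196). Again 0 of 34 and 0% of the 619 passed by limma, and at an unadjusted p under 0.05 there were 7 of the 34 (3 higher, 4 lower) against 22% of the 619 (17.1% higher, 4.85% lower). Ndufa11 had the largest difference of the 34 in both treated groups, at 0.57 in AD and 0.59 in ADPolB mice. Its unadjusted limma p was under 0.05 in both, but it entered the tested set only through transgenic mice. With array weights, Cox14, Cox5b and Ndufb4 passed in treated AD mice, among 92 of the 619 genes. Cox5b, Ndufb11 and Sdhc passed in treated ADPolB mice, among 182 of the 619. Between treated ADPolB and treated AD mice, Uqcrq was at -0.12, Cox14 at -0.16 and Cox6a1 at -0.15 (adjusted p = 0.507 for each). In that comparison 0 of 34 and 0% of the 619 passed by limma, and 3 of the 34 and 8.4% of the 619 had an unadjusted p under 0.05.

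Across all 5 groups, limma's F test placed Ndufb4 (adjusted p = 0.428), Cox5b (adjusted p = 0.440) and Atp5k (adjusted p = 0.499) first. It called 0 of 34 genes and 0% of the 619. The unadjusted p was under 0.05 in 5 of the 34, these 3 with Cox14 and Ndufb11, and 9.53% of the 619. Between the 11 females and 12 males, with group means in the model, none of the 34 passed (0% of the 619), and 0 of 34 had an unadjusted p under 0.05 against 7.75% of the 619. Atp5d was at 0.09, Ndufb10 at -0.08 and Cox7b at -0.12 in females against males (smallest adjusted p = 0.689).

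The median of the 34 genes relative to wild type ranged from -0.13 in treated ADPolB replicate 4 to 0.07 in treated AD replicate 3. In treated ADPolB replicate 4, which had the highest inferred total, complex III was at -0.25, complex IV at -0.25 and ATP synthase at -0.30, while complex I was at -0.05 and complex II at 0.07. That mouse held the lowest value of all 23 mice, ties included, in 8 of the 34 genes, among them Sdhb, Uqcr11, Uqcrq, Cox5b, Cox6a1 and Cox7c. Wild-type replicate 4 held the highest value in 7 genes, among them Ndufa3, Ndufb4, Ndufb7 and Atp5k. AD vehicle replicate 5, lowest in Ndufb4 and Ndufa12, was the mouse whose median over the 619 genes stood highest, at 0.29. Besides that treated mouse, ATP synthase was furthest below wild type in ADPolB vehicle replicates 1 and 2, at -0.31 and -0.29.

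**Figure D5:**
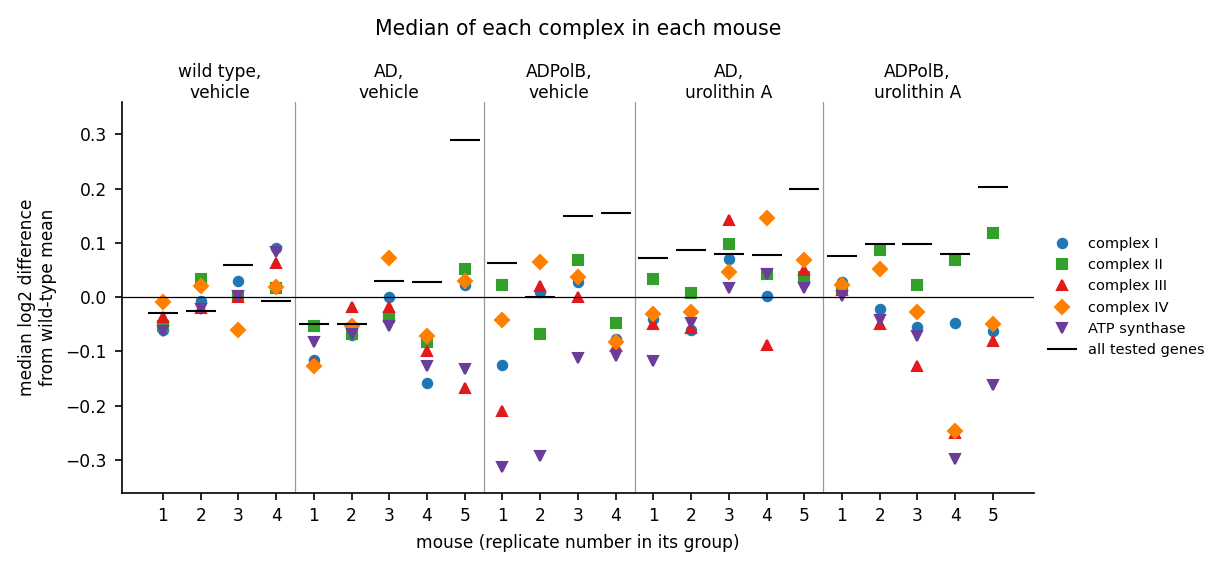
Median difference from the wild-type mean over the genes of each complex (symbols) in each of the 23 mice, on the log2 scale, with the median of the 619 tested genes as a bar. Treated ADPolB replicate 4 lies lowest for complexes III and IV (both -0.25), and AD vehicle replicate 5 has the highest bar, at 0.29.

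Other mitochondrial genes of the panel were read from the same fit, and none passed the threshold in any of the 12 comparisons. Of 18 listed genes for pyruvate entry and the tricarboxylic acid cycle, 9 were measured. In AD vehicle mice 7 of the 9 were below wild type (median -0.09; 8 with median centring, 6 with quantile normalization), led by Fh1, fumarase, at -0.13 (limma adjusted p = 0.510) and Pdha1, of pyruvate dehydrogenase, at -0.16 (adjusted p = 0.518). With urolithin A in AD mice all 9 were above vehicle as deposited (median 0.09), but 3 of the 9 with median centring and 4 with quantile normalization, led by Idh3a, an isocitrate dehydrogenase subunit, at 0.17 and Mpc1, of the pyruvate carrier, at 0.17 (adjusted p = 0.932 for both). Of 11 listed regulators of mitochondrial biogenesis, 3 were measured. Nrf1 was at 0.31 in AD against wild-type mice on vehicle (adjusted p = 0.512), Ppargc1a at 0.19 and Tfam, which packages and transcribes mitochondrial DNA, at -0.12. Sod2, Prdx5, Txn2 and Gpx4, which handle superoxide and peroxides, lay between -0.07 and -0.05 in the same comparison. Sqstm1, a receptor of selective autophagy, was at -0.18 (limma adjusted p = 0.362). None of the 15 listed electron carriers, transporters and other assembly genes had values.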

How the data were processed

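RNA from the hippocampus of 23 mice was counted on an nCounter panel. The deposited table holds log2 of normalized counts, made with nCounter Advanced Analysis per the submitters' design text. Normalization genes, background step and version are not given in the sources used here. Of 768 rows, 20 reference genes had no value, and all columns were mapped to samples by their labels.

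Scaling constants and total counts were inferred from low values lying on log2 of whole numbers (tolerance 0.0125, counts up to 40), which fitted at least 99.6% of them. At these depths a normalized count of 20 stood for 7.27 to 29.6 inferred counts.

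Genes reaching 20 in at least 4 mice (619) were fitted in all 23 mice with limma 3.58.1 in R 4.3.3 (1 mean per group, empirical Bayes with trend). Tests were two-sided, and p was adjusted by Benjamini-Hochberg over the 619 genes, threshold 0.05. The fit was run on simulated data with planted differences, and its recovery of them is not reported here. Values per mouse are given for the 3 genes with the smallest p in each comparison of vehicle genotypes or of treatment within a genotype, and in the F test. Promoters were searched in Python 3.11.15 with pandas 2.3.3. Alternatives covered scaling, filter, covariates, weights, moderation and single mice.

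The members and lists were chosen with earlier results of these data known. Each sample was taken as a separate mouse, and p-values measure the spread between these samples. Cartridge and scan are not in the labels and were not tested.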

Additional observations from a re-analysis of the deposited data

Results flagged for a closer look

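Of 175 sets of values (each of the 34 genes, and their median deviation from wild type, in each of the 5 groups), 17 had a single mouse far from the others by Dixon's criterion (9.71%), in 15 of the 34 genes. For a single set chance gives about 1 in 20. The sets are not independent, since all genes were read in the same mice, so an excess over chance was not tested. The values are log2 normalized counts.

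In treated ADPolB replicate 4, Cox6b1 was at 11.64 (others 11.82 to 11.85), Cox7c at 12.20 (others 12.44 to 12.53) and Atp5d at 10.77 (others 10.97 to 11.04). Ndufa6 was at 8.86 in treated ADPolB replicate 5 (others 9.12 to 9.20), the mouse with the lowest inferred total. In ADPolB vehicle replicate 1, Ndufa7 was at 9.26 (others 9.52 to 9.56) and Ndufb2 at 10.40 (others 10.72 to 10.78). Ndufb8 was at 11.23 in ADPolB vehicle replicate 4 (others 11.44 to 11.48).

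In AD vehicle mice, Ndufa2 was at 10.14 (others 10.01 to 10.04) and Sdhc at 10.44 (others 10.14 to 10.21) in replicate 5, and Cox8a at 7.67 in replicate 1 (others 7.97 to 8.08). In treated AD mice, Ndufb10 was at 11.64 (others 11.33 to 11.36) and Ndufs8 at 10.56 (others 10.39 to 10.42) in replicate 3. In replicate 2 of that group, Ndufa11 was at 4.11 (others 4.57 to 4.62) and Cox8a at 7.85 (others 8.10 to 8.13). In wild-type mice, Atp5k was at 12.13 (others 11.93 to 11.96) and Ndufa11 at 3.54 (others 4.03 to 4.12) in replicate 4, and Ndufb11 was at 8.79 in replicate 3 (others 8.55 to 8.57).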

How the results depend on the processing

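Under 12 of 13 alternatives and with each of the 23 mice left out in turn, 0 of the 34 genes passed in any comparison (smallest adjusted p with a mouse left out 0.0646, for treated ADPolB against wild type without wild-type replicate 3). With array weights the counts were 2 in AD and 2 in ADPolB vehicle mice against wild type, 3 in treated AD and 3 in treated ADPolB mice against wild type, and 4 in the F test; over all 619 genes these comparisons then had 10, 132, 92, 182 and 150 calls. The cause was not tested. Of the 33 differences recomputed for single genes, those of the 3 smallest p-values in each of 11 comparisons, none changed sign; the other differences named were not followed one by one. With each mouse centred on its median, the median difference of the 34 genes was -0.11 in ADPolB against wild type, -0.007 for urolithin A in AD mice, -0.035 for the mean treatment difference, -0.12 in treated AD and -0.17 in treated ADPolB mice against wild type. With quantile normalization it was 0.028 for urolithin A in AD mice and 0.0039 for the difference between genotypes. The other 353 recomputed medians moved by less than 0.0532, the SD between mice. Leaving out 1 mouse gave medians of -0.085 to -0.049 for AD, -0.060 to -0.0092 for ADPolB, -0.0038 to 0.036 for treated AD and -0.066 to -0.013 for treated ADPolB mice against wild type. They were 0.071 to 0.10 for urolithin A in AD mice, -0.015 to 0.025 in ADPolB mice, 0.025 to 0.049 for the mean of both and -0.11 to -0.057 for their difference. ADPolB against AD mice gave 0.0088 to 0.053 on vehicle and -0.062 to -0.024 on urolithin A. With the replicate number as a block, 0 of the 34 genes passed (smallest adjusted p = 0.109), as in the fit without it; over the 619 genes, 1 gene passed in ADPolB vehicle mice against wild type and 1 in the F test, against 0 without the block. The labels do not say whether the numbers pair the mice, and the values do not settle it. Same-numbered mice correlated at -0.39 to 0.55 in their deviations, with 21 of 34 pairs over 0.1. In 23 of 68 comparisons of a mouse with the mice of another group, its own number correlated best. The share to be had by chance was not computed. Centring on the panel's reference genes was not run, since none has values. Signal is limiting for Ndufa11, at 9.02 to 30.1 inferred counts.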
